A study of Homo sapiens with 17 samples.

Results

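The step from 10 mM to 16 mM acetaldehyde was examined in BEAS-2B, an immortalised human bronchial epithelial line, by setting the 5 libraries of the higher dose (numbered 1 to 5) against libraries 2 to 6 of the lower dose. These are 10 of the 17 libraries of the series. The members were chosen by dose label and selected on a measured value at 1 point, since library 1 at 10 mM was left out for its expression profile, which stands far apart from all the others. The cells are labelled wild type, grew in bronchial epithelial growth medium (BEGM), and received 0, 10 or 16 mM acetaldehyde in that medium for 24 h, with 6 control libraries, 6 at 10 mM and 5 at 16 mM. Messenger RNA with a poly-A tail was sequenced. The series' title names the PI3K/AKT and MAPK/ERK pathways, and no drug, knockdown or second cell line enters these groups. The question addressed is what the higher dose adds to, or takes back from, the profile at the lower dose. Whether libraries of 1 dose derive from distinct cultures is not stated, so all p-values measure only the spread among these libraries, which may be technical.

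Acetaldehyde is the first product of ethanol oxidation and a constituent of tobacco smoke. It binds amino groups of proteins and DNA and is cleared by aldehyde dehydrogenases. Cells that carry damaged protein induce heat shock chaperones through the factor HSF1, cells under electrophile stress induce NRF2 targets, and DNA damage activates p53. Growth factor receptors at the airway surface signal through the RAF-MEK-ERK cascade and through PI3 kinase and AKT, and ERK activity is read out by a set of rapidly induced genes that include its own phosphatases.

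The libraries of each dose fell into a pair of tight sets. At 10 mM these were libraries 2 to 4 (first set) and 5 and 6 (second set), and at 16 mM libraries 1 to 3 (first set) and 4 and 5 (second set). Within a set the correlation of log2 depth-scaled counts across genes was 0.996 to 0.996, and count differences were 1.44 to 2.18 times sampling noise (median chi-square ratio). Between the sets of 1 dose the correlation was 0.979 to 0.986 and the ratio 9.82 to 20.1. The first 16 mM set correlated with the second 10 mM set at 0.982 to 0.984, about as closely as the 10 mM sets did with each other. Across genes the second minus the first set had an SD of 0.419 log2 at 16 mM and 0.333 at 10 mM. The step itself had an SD of 0.402, so the 16 mM sets differed about as much as the doses did. The step correlated with the set difference at 16 mM (r = 0.651) and at 10 mM (r = 0.414), with libraries shared. Library 1 at 10 mM correlated with the other 10 mM libraries at only 0.797 to 0.831. Estimated counts totalled 15952673 to 17245285 per library at 16 mM and 16622786 to 17125516 at 10 mM. Genes with at least 10 counts numbered 12218 ± 157 at 16 mM and 12350 ± 128 at 10 mM (SD, n = 5 each). The difference was within the spread of the 10 libraries (exact two-sided permutation test without regard to sets, p = 0.198). In the first sets the numbers were 12307 to 12352 at 16 mM and 12429 to 12462 at 10 mM. In the second sets they were 12031 and 12064 against 12208 and 12212. Each 16 mM library thus lay below each 10 mM library of the same-numbered set.

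**Figure D1:**
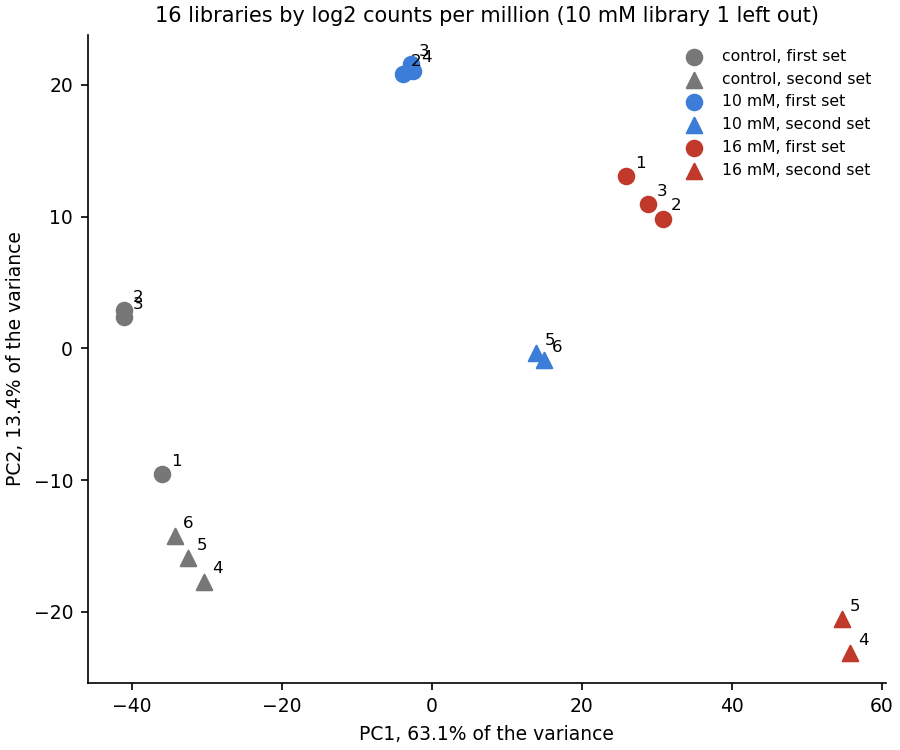
Principal components 1 and 2 of log2 depth-scaled counts in the 16 libraries used, coloured by dose, with circles for the first set and triangles for the second set of each dose and replicate numbers beside the points. PC1 (63.1% of the variance) orders control, 10 mM and 16 mM, and within each dose the sets stand apart from each other. PC1 also separates the sets: 10 mM libraries 2 to 4 lie at -3.91 to -2.59, and 5 and 6 at 13.9 and 14.9. The 16 mM libraries 1 to 3 lie at 25.9 to 30.7, and 4 and 5 at 55.7 and 54.6.

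The epithelial markers KRT8, KRT18 and KRT7 averaged 358, 312 and 432 FPKM (fragments scaled for transcript length and depth) over the 10 libraries. EPCAM, CDH1, KRT19 and KRT5 were at 0.011 FPKM or less, and LAMB3, a laminin chain of epithelial basement membrane, was at 13.1 FPKM. Markers of other cell types were lower than KRT8, KRT18 and KRT7, but some were present. The summed level of 9 fibroblast markers was 31.3 to 36.0 FPKM at 10 mM and 21.2 to 26.5 at 16 mM. Among them THY1 averaged 17.3 FPKM over the 10 libraries, above LAMB3, with COL1A1 at 5.11 and PDGFRB at 5.06. The other fibroblast markers were at 0.808 FPKM or less, with COL3A1 at 0. The sum of 6 leukocyte markers was 9.17 to 11.0 FPKM at 10 mM and 11.5 to 14.5 at 16 mM. CD68 made up most of it, and PTPRC was at 0. The 6 endothelial markers summed to 0.84 FPKM or less.

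Of 12545 genes tested, 5537 (44.1%) were called between the doses, meaning an adjusted p under 0.05 in edgeR's quasi-likelihood test. Changes below are log2 estimates of that fit ± SE, and levels are FPKM per library or as mean ± SD over the 5 libraries of a dose. At 16 mM 2916 genes (23.2%) were higher and 2621 (20.9%) lower. At least 2-fold changes were called for 95 genes higher (0.757%) and 314 lower (2.5%). These became 183 higher and 104 lower when the first 16 mM set was set against the second 10 mM set, and 32 and 39 with limma on log2(FPKM + 1). The libraries of both doses did not overlap in FPKM for 3857 genes (30.7%), and 3524 of these were also called. These calls count each library of a set as a replicate. With the libraries of each set summed into 1, leaving 2 against 2, 0 of 13465 genes were called by edgeR, the smallest adjusted p being 0.102, although 2606 had an unadjusted p under 0.05. With the set added as a term to that fit, 253 genes were called higher (1.88%) and 469 lower (3.48%). That term treats the first sets of all doses as matched, and the second sets likewise. The match rests on replicate numbering alone and is not given by the labels.

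The sets allowed a comparison of the step in libraries that share no member. Among 12160 genes tested in both, the log2 change in the first sets (16 mM libraries 1 to 3 against 10 mM libraries 2 to 4) and in the second sets (16 mM libraries 4 and 5 against 10 mM libraries 5 and 6) had a Pearson correlation of 0.746 across genes, which are not independent replicates. Of 3800 genes called higher in the first sets, 2850 (75%) were called higher in the second sets and 123 lower, where 33.5% of all genes tested in both were called higher. Of 3854 called lower, 2901 (75.3%) were called lower and 134 higher, against 33.8% of all genes. Of the 229 genes called at least 2-fold lower in the first sets, 199 were called lower and 0 higher in the second sets. Median changes were as large in the second sets as in the first, at 0.34 and 0.26 for the genes chosen as higher and -0.39 and -0.32 for those chosen as lower.

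**Figure D2:**
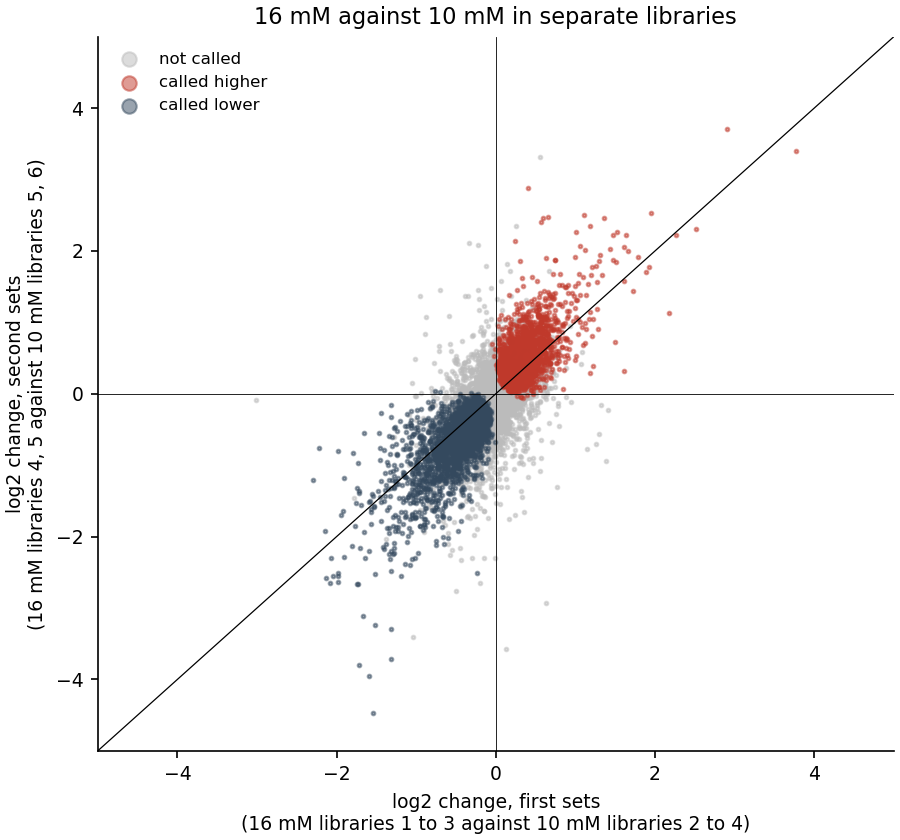
Log2 change from 10 mM to 16 mM in the first sets (horizontal) and the second sets (vertical), 1 point per gene, coloured by the call over all 10 libraries; 3 genes lie outside the axes. Called genes lie mostly in the upper right and lower left, near or beyond the line of equal change.

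Genes called at the step were sorted by their call at 10 mM. The comparisons of 10 mM with control (5670 of 12545 genes called, 45.2%) and of 16 mM with 10 mM share the 10 mM libraries, so the following counts describe orders of the 3 doses and are no independent agreement. At the step 2069 called genes moved further in the direction already called at 10 mM, 1032 of them up and 1037 down. Another 699 moved back, 361 up after a fall and 338 down after a rise. The other 2769 were called at the step alone, 1523 up and 1246 down. The moves back were modest in size: 6 of the 361 and 27 of the 338 reached 2-fold. Between control and 16 mM 65.9% of genes were called. Of the genes that turned back, 108 of the 361 and 76 of the 338 were called different from control at 16 mM. A shift of the shared 10 mM libraries alone would move both changes in opposite directions, as a move back does. With sets summed and the set as a term, 257 genes went further, 7 went back and 458 were called at the step alone.

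Heat shock chaperones, already higher at 10 mM, were in part higher again at 16 mM. Of 24 tested members 12 were called higher and 0 lower (all genes: 23.2% and 20.9%), with a median step of 0.51 log2 on top of 1.04 from control to 10 mM. HSPA6 is a strictly stress-inducible HSP70 whose level in resting cells is close to nothing. It read 0.97, 1.10, 1.18, 1.13 and 1.29 FPKM in the 10 mM libraries 2 to 6 and 6.09, 10.3, 8.23, 15.9 and 15.04 in the 16 mM libraries 1 to 5, against at most 0.32 in control. Every 16 mM library lay above every 10 mM library, and the second 16 mM set lay above the first. The log2 change was 3.32 ± 0.28, adjusted p = 1.1e-06, the largest rise among the genes with at least 5 FPKM and no overlap. HSPA6 shares long stretches with the other HSP70 genes, so part of its reads may have been assigned between copies.

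HSPA1A and HSPA1B, near-identical HSP70 genes whose reads cannot be fully separated, moved alike. HSPA1A read 113, 112, 103, 175 and 168 FPKM at 10 mM and 291, 346, 301, 610.5 and 590 at 16 mM. Its log2 change was 1.71 ± 0.35, adjusted p = 0.001, and that of HSPA1B was 1.28 ± 0.30. Neither gene overlapped between the doses. HSPH1, an HSP110 exchange factor, rose from 109.6 ± 32.3 to 225 ± 63.3 FPKM (SD, n = 5 each; log2 1.06), and BAG3, which links HSP70 to autophagy, from 37.1 ± 4.19 to 71.1 ± 19.3 (log2 0.97). CHORDC1, an HSP90 partner, rose by 0.75 ± 0.16 log2. DNAJA1, an HSP40 co-chaperone, rose by 0.62 ± 0.23 with an adjusted p of 0.042, and its call was lost without any one of the 10 mM libraries 2, 3 and 4 or the 16 mM libraries 4 and 5 (adjusted p 0.092 to 0.12). HSPA8 and HSP90AA1, main cytosolic members of the HSP70 and HSP90 families, were called higher at 10 mM and did not pass at the step (log2 0.38 ± 0.42 and 0.32 ± 0.33). With sets summed and the set as a term, 9 were called higher and 0 lower. The first 16 mM set against the second 10 mM set gave 8 chaperones higher and 7 lower with a median of 0.01 (all genes: 25.9% and 27.8%). The other crossing gave 22 and 1 with a median of 1.03 (all genes: 38.9% and 39.0%). The medians were 0.53 in the first sets and 0.47 in the second. The size of the change of this list so depends on which sets of both doses are paired.

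ZFAND2A, a stress-induced partner of the proteasome that is also a known heat shock factor target, followed another order. Control libraries read 33.2, 36.7, 39.03, 23.4, 21.9 and 24.9 FPKM, 10 mM libraries 20.8, 18.1, 19.4, 16.1 and 18.1 and 16 mM libraries 37.5, 43.4, 44.4, 73.7 and 67.98. The 10 mM libraries lay below all control libraries and all 16 mM libraries. The step was 1.44 ± 0.19 log2 (adjusted p = 4.4e-05) after -0.56 from control to 10 mM.

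The chaperone genes are the group in which promoter sequence can be set beside the dose series, and HSPA6, CHORDC1 and DNAJA1 are shown because all were called higher at the step and hold the searched element. The element is the heat shock element, taken here as the units GAA, TTC and GAA with any 2 bases between neighbours, or TTC, GAA and TTC on the other strand, searched on both strands in windows from 250 bases before to 50 bases after the start site (RefSeq, GRCh38.p14). It is printed in capitals, and overlapping matches run together.
HSPA6 (chr1:161524290-161524589, plus strand): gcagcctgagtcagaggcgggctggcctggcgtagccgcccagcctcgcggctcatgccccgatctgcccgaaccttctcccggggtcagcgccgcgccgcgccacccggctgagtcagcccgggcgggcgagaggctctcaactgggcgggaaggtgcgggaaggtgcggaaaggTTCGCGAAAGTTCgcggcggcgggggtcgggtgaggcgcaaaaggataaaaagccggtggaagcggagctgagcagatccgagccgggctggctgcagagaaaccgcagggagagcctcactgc
CHORDC1 (chr11:90223000-90223299, minus strand): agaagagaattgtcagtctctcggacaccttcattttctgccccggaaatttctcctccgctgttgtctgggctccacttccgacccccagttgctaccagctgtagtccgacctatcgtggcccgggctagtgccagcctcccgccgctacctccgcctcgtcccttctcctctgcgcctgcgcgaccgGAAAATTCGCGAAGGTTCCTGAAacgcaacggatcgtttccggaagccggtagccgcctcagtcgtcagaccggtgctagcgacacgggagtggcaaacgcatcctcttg
DNAJA1 (chr9:33025023-33025322, plus strand): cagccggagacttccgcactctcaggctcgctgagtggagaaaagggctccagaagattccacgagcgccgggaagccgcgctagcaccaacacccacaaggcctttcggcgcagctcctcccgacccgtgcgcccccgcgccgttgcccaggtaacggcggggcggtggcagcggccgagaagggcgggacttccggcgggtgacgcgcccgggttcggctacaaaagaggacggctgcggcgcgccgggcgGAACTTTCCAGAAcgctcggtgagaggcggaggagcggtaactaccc
In HSPA6 the match lies 74 to 62 bases before the start site, and in CHORDC1 3 overlapping matches run from 60 to 38 bases before it. In DNAJA1 the match lies just inside the transcript. Among all 35116 tabulated promoters 172 (0.49%) hold the element. Of the heat shock members with a promoter entry, 3 of the 11 called higher and 5 of the 11 that did not pass hold it, so the letters do not separate the members that moved at this step from those that did not. A match is a description of the sequence and shows no binding.

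Library 1 at 10 mM, which is outside the comparison, held the stress genes at far higher levels than any other library: 251 FPKM of HSPA6, 2584 of HSPA1A, 157 of BAG3 and 317 of ZFAND2A. With it included, the changes of HSPA6 and HSPA1A were -2.81 and -1.07 log2 and not called, and 0 of the 24 chaperones were called either way. Over all genes, 1777 of 12564 (14.1%) were called with library 1 included, 840 higher (6.69%) and 937 lower (7.46%). All 1777 are also called without it, in the same direction, while 512 of the 5537 calls made without it have the opposite sign.

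**Figure D3:**
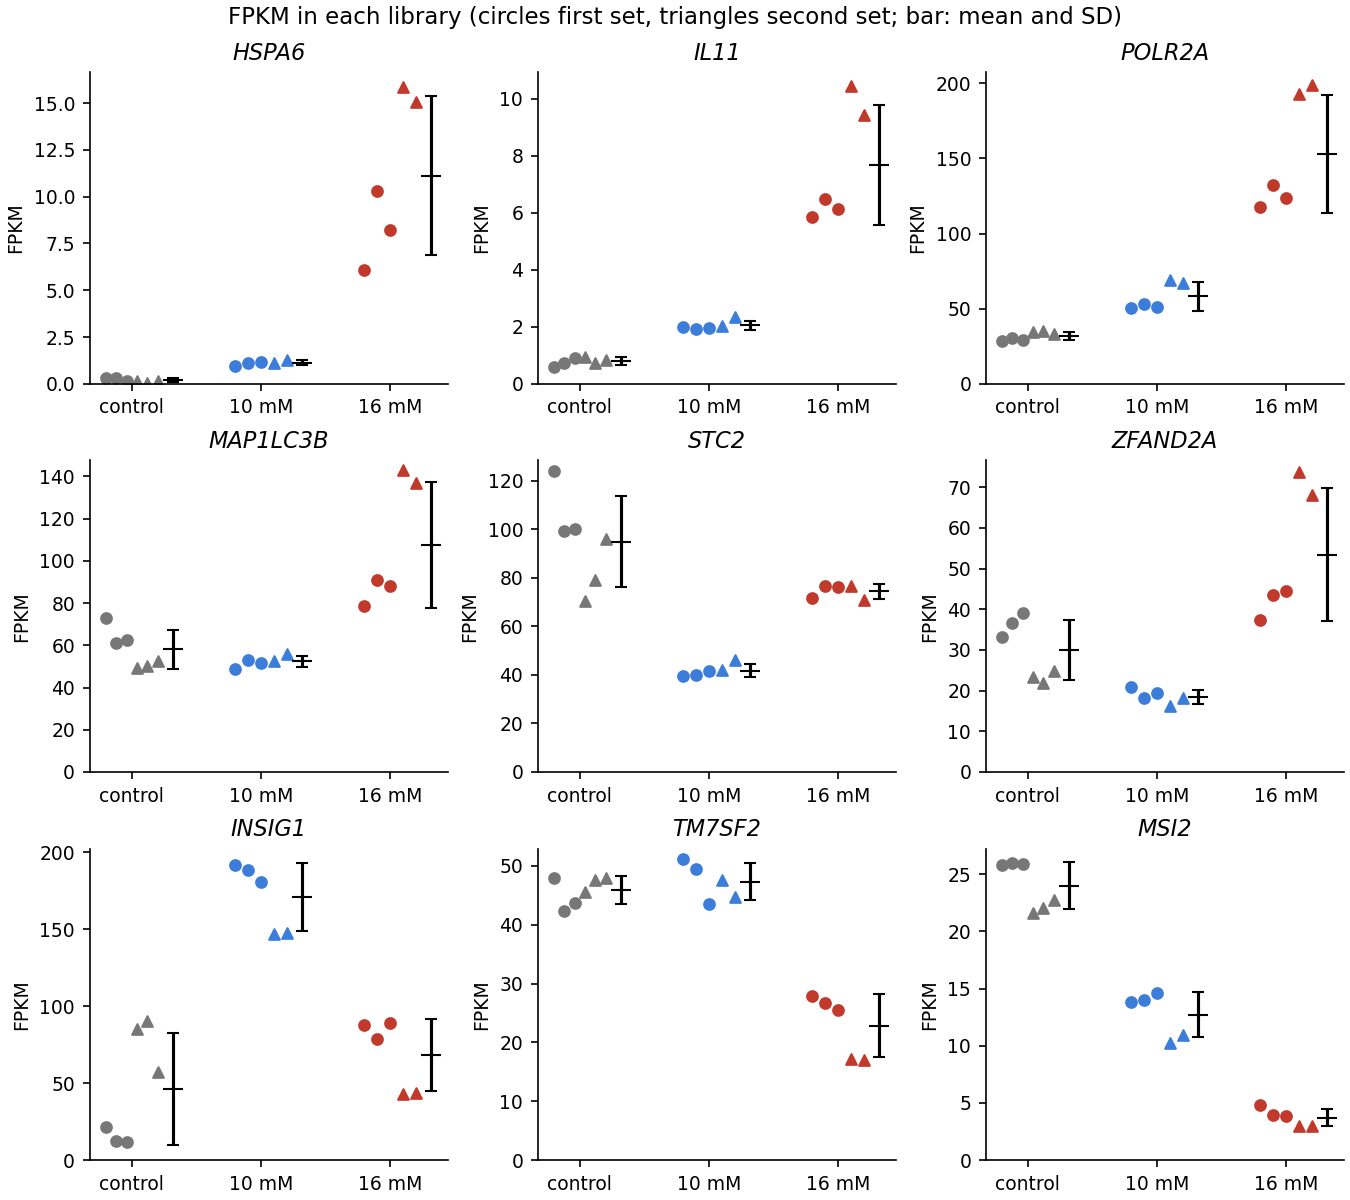
FPKM of 9 genes in every library used (linear axes from 0), with circles for the first and triangles for the second set of each dose and the mean and SD at the right of each group. HSPA6, IL11 and POLR2A climb at both steps, MSI2 falls at both, STC2, ZFAND2A and INSIG1 turn back, and MAP1LC3B and TM7SF2 move at the second step.

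Part of the ERK-induced genes rose at the step. Of 20 tested ERK-induced genes 12 were called higher and 0 lower (all genes: 23.2% and 20.9%), with a median step of 0.68 log2 after 0.93 at 10 mM. Interleukin 11 (IL11), a secreted cytokine, read 2.01, 1.94, 1.95, 2.02 and 2.33 FPKM at 10 mM and 5.84, 6.50, 6.14, 10.4 and 9.43 at 16 mM. All 16 mM libraries lay above all 10 mM libraries (log2 change 1.93 ± 0.19, adjusted p = 2.9e-06). HBEGF, a ligand of the EGF receptor, read 7.08, 6.61, 6.44, 4.97 and 4.70 and 13.1, 16.2, 14.2, 27.6 and 25.9. The groups did not overlap, and the second 16 mM set was the higher one (log2 change 1.10 in the first sets and 2.50 in the second). The nuclear ERK phosphatase DUSP5 went from 12.1 ± 1.60 to 36.3 ± 4.45 FPKM (SD, n = 5 each), a log2 change of 1.60 ± 0.23.

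FOSL1, the AP-1 subunit FRA1 that accumulates under sustained ERK activity, rose from 16.3 ± 3.92 to 45.8 ± 16.1 FPKM (log2 1.52 ± 0.28), after 2.36 at the first step. DUSP6, the cytoplasmic ERK phosphatase, and SPRY4, a feedback inhibitor of receptor signalling, rose by 1.12 and 1.13 log2. PHLDA1 had not moved at 10 mM (log2 -0.08, adjusted p = 0.78) and rose by 1.21 ± 0.22 at the step. MAFF, a small basic leucine zipper factor induced by stress and growth factors, rose by 1.51. The immediate-early genes FOS and EGR1 did not pass, at -1.0 ± 0.43 and -0.23 ± 0.23 log2. FOS read 78.3, 52.5, 61.7, 219 and 201 FPKM at 10 mM and 63.03, 57.2, 53.9, 65.3 and 66.2 at 16 mM, so the second 10 mM set alone lay high. In the fit of summed sets with a set term, 8 of the 20 ERK-induced genes were called higher and 0 lower. With library 1 included 4 were called higher and 0 lower, and FOSL1, at 122 FPKM in that library, had a change of -0.15 and was not called.

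Of 23 tested members of the cascade from receptors to ERK, 5 were called higher and 9 lower (all genes: 23.2% and 20.9%), with a median step of 0.00. MEK1 (MAP2K1) rose from 46.6 ± 0.580 to 69.4 ± 9.93 FPKM (log2 0.59 ± 0.09), with every 16 mM library above every 10 mM library. ERK1 (MAPK3) read 51.1, 50.6, 50.5, 47.8 and 48.3 at 10 mM and 37.95, 41.6, 36.5, 30.7 and 35.1 at 16 mM, a log2 change of -0.45 that left it -0.08 from control. The RAF kinase ARAF fell by 0.61 ± 0.10 log2. Among receptors, EGFR changed by -0.30 log2, after -0.68 at 10 mM, and ERBB3 by -0.85, which left it -0.29 from control. Transcript levels say nothing of the phosphorylation state of these kinases.

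Of 28 tested components of the PI3 kinase and AKT pathway, 6 were called higher and 11 lower (all genes: 23.2% and 20.9%), with a median of -0.06 log2. AKT1 did not differ beyond the spread, at 96.6 ± 5.33 FPKM at 10 mM and 95.9 ± 7.53 at 16 mM (log2 0.01 ± 0.07, adjusted p = 0.95). AKT2 read 56.5, 54.96, 58.05, 54.3 and 52.1 and 46.00, 42.4, 41.8, 38.96 and 37.6, and every 16 mM library lay below every 10 mM library (log2 -0.38 ± 0.05). IRS2, the insulin receptor adaptor, rose from 7.00 ± 0.456 to 11.0 ± 1.36 FPKM (log2 0.68 ± 0.09). INPP4B, a phosphatase that removes the pathway's lipid products, fell from 2.14 ± 0.217 to 1.50 ± 0.210 (log2 -0.57). The catalytic subunit PIK3CA rose by 0.19 ± 0.05, back toward control after -0.29 at 10 mM. After summing the sets and adding the set term, 1 of the 28 was called higher and 0 lower. In the stress kinase branch, MAP2K3, an activator of p38, rose from 21.9 ± 3.64 to 38.3 ± 9.97 (log2 0.83).

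Notch genes included some of the larger rises outside these pathways. Of 13 tested 6 were called higher and 2 lower (all genes: 23.2% and 20.9%). With sets summed and the set as a term 2 were higher and 1 lower. The first sets gave 5 higher and 3 lower with a median of 0.03 (all genes: 30.7% and 31.7%). The second sets gave 7 and 2 with a median of 0.23 (all genes: 33.5% and 33.7%). HES1, the main transcriptional target of Notch, read 1.96, 1.32, 1.58, 2.21 and 2.05 FPKM at 10 mM and 5.35, 6.80, 6.54, 7.67 and 6.65 at 16 mM (log2 change 1.87 ± 0.18, adjusted p = 2.9e-06). The ligand JAG1 read 7.91, 7.90, 7.42, 9.12 and 9.87 and 13.6, 14.7, 14.3, 18.7 and 18.1, without overlap. JAG1 and the target HEY1 rose by 0.94 and 1.05 log2 at the step, with no rise at 10 mM (log2 -0.29 and -0.49). MAML2, a coactivator, went the other way, from 1.68 ± 0.385 to 0.442 ± 0.172 FPKM (log2 -2.001 ± 0.18). Library 1 at 10 mM read 25.1 FPKM of HES1, above all others, and with it the change was -0.47 and not called.

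**Figure D4:**
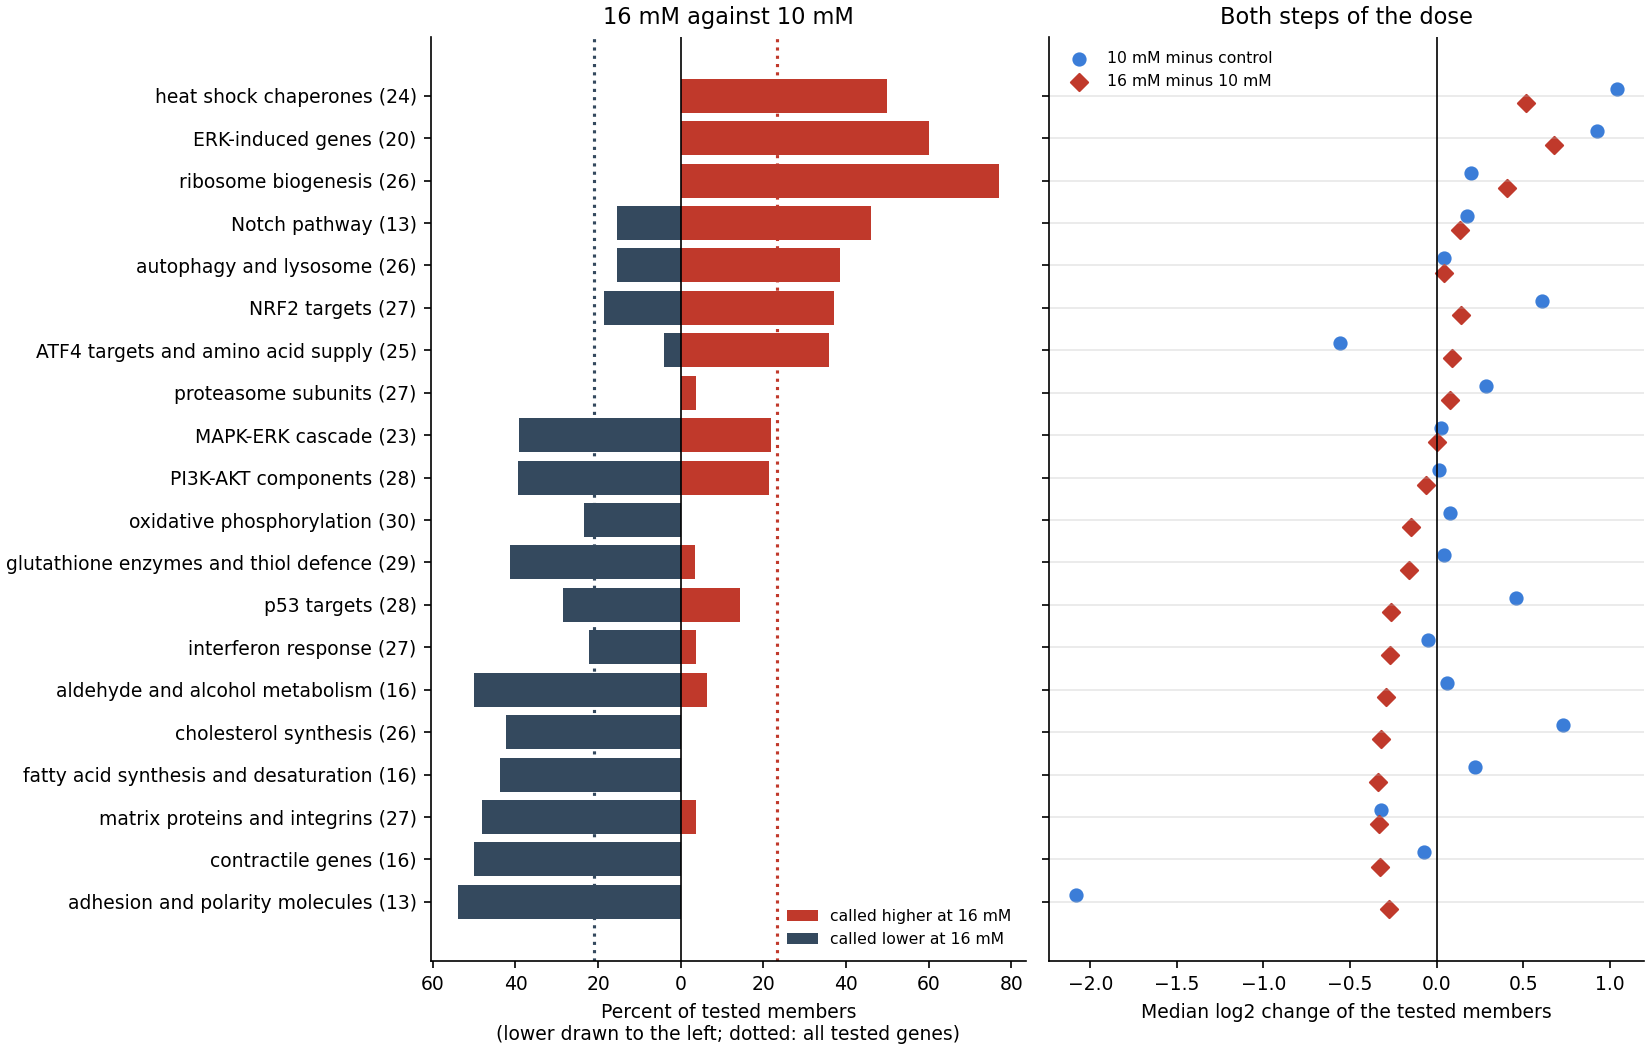
Left, the percent of tested members of 20 gene lists called higher (right of 0) or lower (left of 0) at 16 mM against 10 mM, with dotted lines at the shares of all tested genes and the number tested in parentheses. Right, the median log2 change of the members from control to 10 mM (circles) and from 10 mM to 16 mM (diamonds); both share the 10 mM libraries. Chaperones, ERK-induced genes and ribosome biogenesis lie to the right at the step, and cholesterol synthesis and p53 targets lie right at 10 mM and left at the step.

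POLR2A, the catalytic subunit of RNA polymerase II, read 28.5, 30.5, 29.4, 34.7, 35.2 and 33.1 FPKM in control, 50.2, 53.01, 50.9, 69.4 and 67.2 at 10 mM and 118, 132, 124, 193 and 199 at 16 mM. No library of a dose overlapped with another dose, and the step was 1.43 ± 0.18 log2 (adjusted p = 2.7e-05). The list of RNA polymerase II subunits did not follow it as a whole: of 12 tested, 4 were called higher and 2 lower (all genes: 23.2% and 20.9%), with a median of 0.03. SNAPC1, a subunit of the complex that starts small nuclear RNA genes, was 33.1 ± 1.67 FPKM at 10 mM and 61.0 ± 1.4 at 16 mM (log2 0.90 ± 0.08), with no change called at 10 mM.

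Of 26 ribosome biogenesis factors 20 were called higher and 0 lower (all genes: 23.2% and 20.9%), with a median of 0.40 log2. BYSL, a small-subunit assembly factor, rose from 21.7 ± 4.21 to 36.3 ± 5.73 FPKM (log2 0.76 ± 0.14). NOP2, an rRNA methyltransferase, and GNL3 (nucleostemin) rose by 0.72 and 0.68. Of 28 cytosolic ribosomal proteins 0 were called higher and 1 lower (all genes: 23.2% and 20.9%). Of the 296 annotated KEGG pathways with 15 to 200 tested members, ribosome biogenesis in eukaryotes had the highest median step (0.26 log2, 39 of 71 called higher and 3 lower). RNA polymerase came next (0.20 log2, 16 of 34 called higher and 3 lower). In the fit of summed sets with a set term, 4 of the 26 factors were called higher and 0 lower. The first 16 mM set against the second 10 mM set gave 7 higher and 5 lower with a median of 0.03, and the other crossing 26 and 0 with a median of 0.73. With library 1 included 0 were called, and the median was -0.23.

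Autophagy receptors and ubiquitin-like modifiers rose in part. Of 26 autophagy and lysosome genes 10 were called higher and 4 lower (all genes: 23.2% and 20.9%), with a median of 0.04 log2. Summing sets with a set term left 2 higher and 0 lower. Crossing the first 16 mM set with the second 10 mM set gave 7 higher and 6 lower (median -0.05), and the other crossing 13 and 7 (median 0.17). MAP1LC3B, the LC3 protein of autophagosome membranes, read 48.9, 52.9, 51.8, 52.5 and 55.9 FPKM at 10 mM and 78.8, 91.1, 87.9, 143 and 137 at 16 mM, with no overlap (log2 change 1.07 ± 0.16, adjusted p = 1.3e-04), and had not been called at 10 mM. GABARAPL1, of the same protein family, and the lysosomal channel MCOLN1 rose by 0.61 and 0.72. The receptor SQSTM1 rose by 0.50 ± 0.14, but changed by -0.05 and was not called with the first 16 mM set against the second 10 mM set. ANGPTL4, a secreted regulator of lipoprotein lipase, went from 1.85 ± 0.406 to 8.73 ± 3.30 FPKM (log2 2.27 ± 0.27) and NDRG1, a gene induced by hypoxia and metal stress, from 10.7 ± 0.781 to 24.2 ± 6.26 (log2 1.21). Of 27 hypoxia and glycolysis genes 6 were called higher and 1 lower (all genes: 23.2% and 20.9%), so the share called higher was near that of all genes. ID2, an inhibitor of helix-loop-helix factors, rose by 1.91 ± 0.25. Keratin 17 (KRT17), a keratin of injured epithelium, rose by 1.001 ± 0.16, from 91.3 ± 8.08 to 180.4 ± 20.3.

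Targets of ATF4, the factor of the integrated stress response, moved back up in part. At 10 mM 17 of 25 had been called lower than control and 1 higher (all genes: 22.8% and 22.4%). At the step 9 were called higher and 1 lower (all genes: 23.2% and 20.9%), with a median of 0.09. Summing sets with a set term left 4 higher and 0 lower. Crossing the first 16 mM set with the second 10 mM set gave 19 higher and 1 lower (median 0.29). The other crossing gave 9 higher and 13 lower (median -0.13), so the direction of this list turns with the sets that are paired. Stanniocalcin 2 (STC2), a secreted glycoprotein, read 124, 99.02, 100.2, 70.5, 78.9 and 95.9 FPKM in control, 39.5, 39.8, 41.6, 41.9 and 46.1 at 10 mM and 71.6, 76.7, 76.03, 76.5 and 70.8 at 16 mM. The 16 mM libraries lay above all 10 mM libraries and below the control median (step 0.85 ± 0.11, adjusted p = 3.0e-05). SLC3A2 and SLC7A11, which form the cystine importer, rose by 0.73 and 0.63 log2, and SLC7A11 ended -0.09 log2 from control. PPP1R15A, which recruits the phosphatase that ends the response, rose from 59.6 ± 4.78 to 121 ± 10.9 FPKM (log2 1.05 ± 0.20). DDIT3 (CHOP) rose by 0.65 ± 0.15. CBS, of the route from homocysteine to cysteine, fell on, by 0.40 ± 0.14. Its call was lost without any one of the 10 mM libraries 2, 3 and 4 or the 16 mM libraries 4 and 5. Library 1 at 10 mM read 496 FPKM of DDIT3 and 362 of STC2, above every other library.

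Most NRF2 targets were higher at 10 mM, with 20 of 27 called higher than control and 3 lower (all genes: 22.4% and 22.8%). They split at the step into 10 higher and 5 lower (all genes: 23.2% and 20.9%). With sets summed and a set term 1 was higher and 0 lower. The first 16 mM set against the second 10 mM set gave 4 higher and 19 lower (median -0.38) and the other crossing 19 and 7 (median 0.45). The medians were 0.20 in the first sets and 0.04 in the second. The direction of this list so turns with the sets of both doses that are paired. OSGIN1, a small oxidative stress response gene, read 2.47, 2.73, 2.51, 5.58 and 6.49 FPKM at 10 mM and 9.15, 9.48, 10.2, 19.4 and 18.9 at 16 mM, with no overlap (log2 change 1.79 ± 0.32, adjusted p = 4.1e-04). GCLM, the modifier subunit of glutathione synthesis, rose by 0.66 ± 0.17. Ferritin light chain (FTL), at 1574 ± 57.9 FPKM in control and 5279 ± 840.3 at 10 mM, was 4447 ± 321 at 16 mM and not called (log2 -0.24 ± 0.11). The aldo-keto reductase AKR1C3 fell by 1.43 ± 0.42, from 1.83 ± 0.375 to 0.680 ± 0.333 FPKM, which left it -0.36 log2 from control. AKR1C genes are near-identical copies, so reads may be shared among them.

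Part of the sterol and lipid synthesis genes turned back at the step. At 10 mM 19 of 26 cholesterol synthesis genes had been called higher than control and 0 lower (all genes: 22.4% and 22.8%), with a median of 0.73 log2. At the step 11 were called lower and 0 higher (all genes: 20.9% and 23.2%), with a median of -0.32. INSIG1, the sterol-sensing retention protein of the endoplasmic reticulum, read 191, 189, 181, 147 and 147 FPKM at 10 mM and 87.7, 78.3, 89.2, 42.8 and 43.4 at 16 mM. Every 16 mM library lay below every 10 mM library (log2 change -1.31 ± 0.49, adjusted p = 0.037), and control libraries spread from 11.5 to 90.4. The INSIG1 call was lost without any one of the 10 mM libraries 2, 3 and 4 or the 16 mM libraries 2, 4 and 5 (adjusted p 0.052 to 0.085). The spread of the controls enters these tests through the shared estimate of variance. In a fit of both doses alone, 18 of the 26 were called lower and 0 higher (all genes: 21.8% and 23%).

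LSS, which closes the sterol rings, read 64.8, 63.6, 59.5, 53.9 and 51.9 and 33.3, 31.6, 32.5, 20.7 and 22.4 FPKM, again without overlap (log2 -1.06 ± 0.28). TM7SF2, a sterol reductase, differed by 0.04 log2 from control to 10 mM and fell from 47.3 ± 3.21 to 22.9 ± 5.35 FPKM (log2 change -1.04 ± 0.11, adjusted p = 5.3e-06). HMGCS1, the synthase at the start of the pathway, did not pass, although its libraries did not overlap: 154, 154, 146, 144 and 153 at 10 mM and 101, 96.7, 102, 75.5 and 72.9 at 16 mM (log2 -0.72 ± 0.38, adjusted p = 0.14). Of 16 fatty acid genes 7 were called lower and 0 higher (all genes: 20.9% and 23.2%). The factor SREBF1 fell by 0.83 ± 0.21. The desaturase SCD fell by 0.59 ± 0.20, a call lost without the 16 mM library 4 or 5. Fatty acid synthase (FASN) was 232 ± 33.2 and 118 ± 14.4 FPKM and did not pass (log2 -0.95 ± 0.41). With sets summed and the set as a term, 1 of 26 cholesterol genes was called lower, and 0 of 16 fatty acid genes.

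For p53 targets the sets of libraries disagreed, and the pooled count hides it. Over 10 libraries 8 of 28 were called lower and 4 higher (all genes: 20.9% and 23.2%). In the first sets 21 were called lower and 3 higher, and in the second sets 12 lower and 11 higher (all genes: 31.7% and 30.7% in the first sets, 33.7% and 33.5% in the second). CDKN1A (p21), the cyclin-dependent kinase inhibitor, read 293, 317, 306, 94.6 and 88.7 FPKM at 10 mM and 165, 157, 159, 86.7 and 93.6 at 16 mM. The first 10 mM set lay above everything else, and the second 10 mM set lay level with the second 16 mM set. CDKN1A was not called (log2 -0.71 ± 0.31, adjusted p = 0.067), with changes of -0.94 in the first sets and 0.01 in the second. MDM2, the ubiquitin ligase of p53, read 59.9, 59.8, 66.4, 20.7 and 21.1 and 37.7, 34.3, 34.7, 18.4 and 16.8 and was not called either. BTG2, an antiproliferative target, was called lower (log2 -1.09 ± 0.33), at -1.27 and -0.47 in the separate sets.

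Cyclin G1 (CCNG1) fell in both, from 129 ± 18.7 to 81.9 ± 10.4 FPKM (log2 -0.63 ± 0.09). PMAIP1 (NOXA), a pro-apoptotic BH3 protein that ATF4 also induces, rose from 43.5 ± 4.00 to 81.9 ± 19.3 (log2 0.84 ± 0.14). When the first 16 mM set was set against the second 10 mM set, 21 of 28 p53 targets were called higher and 5 lower (all genes: 25.9% and 27.8%). The direction of this list so depends on which sets of both doses are paired.

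Of 16 aldehyde and alcohol metabolism genes 8 were called lower and 1 higher (all genes: 20.9% and 23.2%), with a median of -0.29 log2. ALDH3B1 read 18.2, 18.8, 17.7, 13.8 and 13.9 FPKM at 10 mM and 12.3, 11.8, 11.6, 7.49 and 7.68 at 16 mM, without overlap (log2 change -0.68 ± 0.11, adjusted p = 1.9e-04), and the change from control to 10 mM had been -0.64. ALDH16A1 fell by 0.66 with no change called at 10 mM, and ALDH3A1, low throughout, had a log2 change of -1.46 ± 0.31, from 0.930 ± 0.292 to 0.360 ± 0.0579. Mitochondrial ALDH2, the main enzyme for acetaldehyde itself, was 4.69 ± 0.197 and 3.78 ± 0.230 FPKM (log2 -0.29 ± 0.09, adjusted p = 0.017). ALDH9A1 was the member called higher (log2 0.26 ± 0.10), a call lost without any one of the 10 mM libraries 2, 3 and 4 or the 16 mM libraries 4 and 5. After summing the sets and adding the set term, 2 of the 16 were called lower and 0 higher.

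At 10 mM 8 of 29 glutathione and thiol enzymes had been called lower and 8 higher (all genes: 22.8% and 22.4%). At the step 12 were called lower and 1 higher (all genes: 20.9% and 23.2%). With sets summed and a set term 0 were lower and 1 higher. GSTM4, a cytosolic glutathione transferase, fell by 0.90 ± 0.21 log2. The microsomal transferase MGST2 and catalase (CAT) changed by -0.55 and -0.41. Glutathione transferases of the M class are similar in sequence, and their counts may be shared. Of 30 oxidative phosphorylation genes 7 were called lower and 0 higher (all genes: 20.9% and 23.2%), with 1 lower left after summing sets with a set term, among them COX7C at 381 ± 35.6 and 282 ± 25.6 FPKM (log2 -0.44).

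Of 27 matrix proteins and integrins 13 were called lower and 1 higher (all genes: 20.9% and 23.2%), with a median of -0.33 after -0.32 at 10 mM. With sets summed and the set as a term 4 were lower and 0 higher. Integrin beta 4 (ITGB4), of hemidesmosomes, read 63.5, 76.5, 73.7, 69.5, 71.1 and 71.03 FPKM in control, 47.4, 47.4, 46.2, 31.3 and 28.1 at 10 mM and 22.2, 21.6, 20.2, 12.8 and 13.2 at 16 mM, with no overlap between doses (step -1.14 ± 0.15 log2). Laminin beta 1 (LAMB1) fell from 54.5 ± 1.59 to 35.1 ± 3.34 (log2 change -0.61 ± 0.05, adjusted p = 1.1e-06). The collagens COL1A1 and COL6A1 had risen at 10 mM, by 0.88 and 0.62 log2, and changed by -0.94 and -0.71 at the step, which left them -0.06 and -0.09 from control. ITGA5, a fibronectin receptor, was the one member called higher (log2 0.35 ± 0.12), and lost its call without any one of the 10 mM libraries 2, 3 and 4 or the 16 mM libraries 4 and 5. The fibroblast marker sum given above fell alongside, and COL1A1 is one of its members. Whether it has a part in these changes was not tested. In these bulk libraries, fewer cells of a type and less RNA per cell cannot be told apart. Among KEGG pathways, ECM-receptor interaction had a median step of -0.40 log2 (30 of 54 called lower, 4 higher), the second lowest of 296.

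Of 13 adhesion and polarity genes 7 were called lower and 0 higher, and of 16 contractile genes 8 and 0 (all genes: 20.9% and 23.2%). Among all tested genes that span over 400 kb of the genome, described below, 53.1% were called lower and 3.85% higher. Whether span has a part in the falls of these lists was not tested. SORBS2, a sorbin adaptor of stress fibres, read 4.55, 4.45, 4.53, 2.26 and 2.19 FPKM at 10 mM and 1.04, 0.98, 1.16, 0.32 and 0.33 at 16 mM (log2 -2.11 ± 0.28). PARD3B, a polarity protein, had lost most of its level at 10 mM (log2 -4.28) and fell again, from 0.334 ± 0.163 to 0.0840 ± 0.0207 FPKM (log2 -1.99 ± 0.35). The surface mucin MUC1 fell by 1.52 ± 0.26 after -2.15. With sets summed and the set as a term, 6 of the 13 adhesion genes and 1 of the 16 contractile genes were called lower, and 0 higher.

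Lower calls were more frequent among genes that cover long stretches of the genome. MSI2, an RNA-binding regulator of translation (chr17:57255851-57697931, GRCh38), read 25.8, 25.9, 25.9, 21.6, 22.1 and 22.7 FPKM in control, 13.8, 13.99, 14.6, 10.2 and 10.96 at 10 mM and 4.79, 3.98, 3.88, 3.01 and 2.95 at 16 mM. Each dose lay wholly below the one before (step -1.78 ± 0.12, adjusted p = 2.4e-07). LRBA, a vesicle trafficking protein, fell by 1.50 ± 0.13 log2. SBF2, a myotubularin-related protein, fell by 1.72 ± 0.18. NEBL, which binds actin filaments, fell by 1.62 ± 0.23. By the span between start and end in the deposited table, 286 of the 11809 tested genes with a chromosome span over 400 kb. Of the genes called at least 2-fold lower, 293 had a span, and 59 of these (20.1%, against 2.42% of all such genes tested) were over 400 kb and 46 (15.7%, against 5.94%) from 200 to 400 kb. The median step over 400 kb was -0.45 log2, and 53.1% were called lower and 3.85% higher. Genes of 200 to 400 kb had a median of -0.19, and the 4 shorter classes had medians between -0.03 and 0.05. The fall with length was as large in the first sets as in the second, with medians of -0.44 and -0.45 over 400 kb. It was also present from control to 10 mM, where the median over 400 kb was -0.65. Among the 117 of these genes with a mean of at least 5 FPKM the median step was -0.33.

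**Figure D5:**
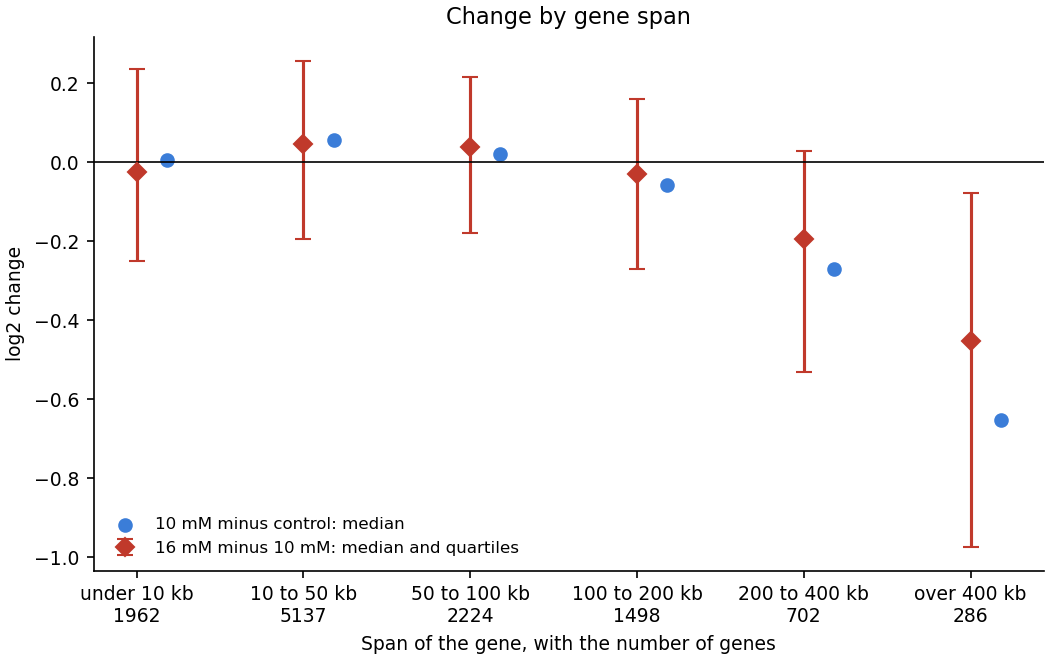
Median log2 change from 10 mM to 16 mM with quartiles (diamonds), and median change from control to 10 mM (circles), for 11809 tested genes in 6 classes of genomic span, with the number of genes under each class. Medians lie near 0 up to 200 kb and fall to -0.45 at the step and -0.65 at 10 mM in the class over 400 kb.

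Some genes moved at the step without a change at 10 mM. SHISA2, a regulator of WNT and FGF receptors, read 1.60, 1.26, 1.24, 2.50 and 2.98 FPKM at 10 mM and 3.85, 5.05, 4.08, 10.6 and 10.8 at 16 mM (log2 1.88 ± 0.34, against -0.03 at 10 mM). SERPINB8, an intracellular protease inhibitor, rose from 4.73 ± 0.716 to 10.1 ± 0.328 FPKM (log2 change 1.12 ± 0.10, adjusted p = 2.3e-06). In the other direction PARD6A, a polarity scaffold whose gene spans 1819 bases, read 8.52, 9.50, 7.72, 6.80 and 6.73 and 2.75, 3.87, 3.39, 1.36 and 1.68 (log2 -1.58 ± 0.21). IP6K3, an inositol phosphate kinase, the tetraspanin TSPAN15 and the actin-binding protein ABLIM3 changed by -1.58, -1.54 and -1.06 log2. None of these 4 overlapped between the doses. Of the 293 genes with a span that were called at least 2-fold lower, 34 (11.6%, against 16.6% of all such genes tested) were under 10 kb.

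Genes that turned back and were named by size include NABP1 and LIG4, both of DNA repair. NABP1, a single-stranded DNA binding protein, read 5.25, 4.41, 5.28, 4.57 and 4.90 FPKM at 10 mM and 6.97, 8.83, 8.59, 17.5 and 14.9 at 16 mM (log2 1.31 ± 0.22, after -0.71). LIG4, the ligase of end joining, rose by 0.56 and ended -0.01 log2 from control. ATP6V0A1, a subunit of the proton pump of lysosomes, fell by 0.60 ± 0.07 after a rise of 0.71.

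Of 26 mitotic genes 0 were called higher and 1 lower (all genes: 23.2% and 20.9%). With both doses alone 0 were higher and 9 lower (all genes: 23% and 21.8%). The first sets gave 2 and 15 (all genes: 30.7% and 31.7%) and the second 2 and 19 (33.5% and 33.7%). Crossing the second 16 mM set with the first 10 mM set gave 13 higher and 5 lower (median 0.08), and the other crossing 0 and 24 (median -0.35). None was called with sets summed, with or without a set term, or with library 1 included. Of 32 DNA replication genes 7 were higher and 4 lower (all genes: 23.2% and 20.9%). LIG1, the replicative ligase, and the helicase subunit MCM7 changed by -0.63 and -0.51 log2, while the origin recognition subunit ORC6 rose by 0.58. Of 7 replication-dependent histone genes 4 were called lower and 0 higher (all genes: 20.9% and 23.2%). Their messages lack a poly-A tail for the most part, so poly-A selected libraries see few of them, as with H2AC6 at 4.54 ± 0.608 and 1.07 ± 0.905 FPKM. Of 27 interferon response genes 6 were called lower and 1 higher (all genes: 20.9% and 23.2%), so the share called lower was near that of all genes. The first 16 mM set against the second 10 mM set gave 17 higher and 4 lower (all genes: 25.9% and 27.8%). IFI44L read 7.67, 7.47, 7.91, 1.36 and 1.26 and 2.05, 2.18, 1.76, 0.27 and 0.22 FPKM (log2 -2.12 ± 0.69), a call lost without the 16 mM library 4 or 5, and PSMB9, an immunoproteasome subunit, fell by 0.63 ± 0.12. At 10 mM 12 of 27 standard proteasome subunits had been called higher and 0 lower (all genes: 22.4% and 22.8%). At the step 1 was called higher and 0 lower (all genes: 23.2% and 20.9%). The crossings of sets gave 0 higher and 26 lower (first 16 mM with second 10 mM) and 26 and 0.

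The authors' deposited table also compares the doses. It lists 1568 genes at a q-value under 0.05, 707 higher and 861 lower at 16 mM. Of these, 1504 were called here with the same sign, although that table does not say which libraries it used.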

How the data were processed

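RNA of 17 BEAS-2B libraries was deposited as 1 table of 16884 genes. Per the submitters' processing notes, the tools named are RSEM 1.3.1, HISAT, DESeq2 1.4.5 and Bowtie2 2.3.4.3, with the build GRCh38.p13 and no roles. The deposited expected counts are not normalized, and 13.1% are not whole. The deposited FPKM values are scaled for length and depth, and the deposited TPM values (scaled likewise) enter no result. Log2 fold changes and q-values of the authors' own comparison enter a single sentence of the report that says so.

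Counts were rounded and tested with edgeR 4.0.16 (R 4.3.3, quasi-likelihood, TMM, filterByExpr, no block) over 16 libraries (6 control, 5 at 10 mM without library 1, 5 at 16 mM) with 13 residual degrees of freedom. P-values were two-sided and adjusted by Benjamini-Hochberg over all tested genes. An SE was taken as |log2 change| over the root of the F statistic. Rows tested held at least 99.95% of counts. Sets came from clustering the libraries of each dose into 2 and were numbered by the lowest replicate number. No label matches a set of 1 dose to a set of another dose. Fits with a library left out assume that the rest vary alike. The code was tested on simulated data.

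Gene lists (46) are described by counts and medians. Named genes were the 12 largest rises and falls, and 8 for each order of doses, restricted to called genes reaching a mean of 5 FPKM whose libraries do not overlap. Up to 4 called members per list, or 2 with the smallest p, and members of the pathways in the title were added, and the text uses part of these. The comparison, its members and the lists were chosen with earlier results of these data known. Alternatives were DESeq2 size factors, no filter, the DESeq2 1.42.0 Wald test, limma 3.58.1 on log2(FPKM + 1), both doses alone, library 1 included with and without voom weights, a replicate block, summed sets, single sets, a set term and each library left out. Crossed sets, summed sets with a set term, GENCODE spans and the spans of 2-fold falls were added after the data were seen. Genes listed on alternate scaffolds were left out of the span classes. Strand handling is not stated, so reads of overlapping or antisense genes cannot be told apart. Results for a few genes are not reported here.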

Additional observations from a re-analysis of the deposited data

Results flagged for a closer look

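Among 318 groups of libraries (106 named genes in 3 doses), 11 had 1 library far from the others of its group, where chance gives about 1 in 20. At 10 mM, library 6 was high for IL11 (2.33 FPKM). At 16 mM, library 2 was high for SLC3A2 (580.3 FPKM) and library 3 high for PARD3B (0.12 FPKM). In control, library 1 was high for FOS (231 FPKM), EGR1 (465 FPKM) and DUSP5 (10.52 FPKM) and low for COL6A1 (21.1 FPKM) and ABLIM3 (5.22 FPKM). Also in control, library 2 was high for IRS2 (5.54 FPKM), library 3 for NABP1 (9.88 FPKM) and library 4 for MGST2 (39.7 FPKM).

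Library 1 at 10 mM, outside the comparison, lay above all 16 other libraries for 32 of the 106 named genes and below all of them for 29.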

How the results depend on the processing

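Among the 96 named genes called over 10 libraries, 95 kept call and direction with DESeq2 size factors, without the filter on low counts, with the DESeq2 Wald test and with the replicate block, and all 96 with both doses alone, in each single pair of sets, with a set term, and with voom weights including library 1. With library 1 included without weights 44 were kept and 14 took the opposite sign. The first 16 mM set against the second 10 mM set kept 87, with 4 opposite. Same-numbered libraries of both doses deviated from their group means together for numbers 2, 3 and 5 (r = 0.43, 0.45 and 0.52) and against each other for number 4 (r = -0.43), so the numbers do not pair the libraries. The replicate block gave 3006 genes higher and 2875 lower.

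With library 1 included, 840 genes were called higher, 937 lower and 40 at least 2-fold higher. From control to 10 mM there were then 1182 higher and 1169 lower, and from control to 16 mM 2169 and 2270, with 442 genes going further and 105 back. The following changes then had the opposite sign and were not called: HSPA6 -2.81, HSPA8 -0.62, HSP90AA1 -0.0606, HSPA1A -1.07, HSPA1B -1.46, BAG3 -0.14, DNAJA1 -0.16, ZFAND2A -0.997, FOSL1 -0.15, AKT1 -0.0329, HES1 -0.47, BYSL -0.28, SQSTM1 -0.0616, ANGPTL4 -0.0453, PPP1R15A -0.65, STC2 -0.98 and DDIT3 -1.81.

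With sets summed, which leaves 3 residual degrees of freedom, 0 genes were called in either direction or at 2-fold, 0 went further or back, and control against 10 mM gave 55 higher and 191 lower and against 16 mM 1593 and 1887. All 96 named genes kept their direction. With the set as a term there were 253 higher, 469 lower and 178 at least 2-fold lower, and 63 of the 96 were called. First sets alone gave 3942 lower. Second sets alone gave 4119 lower, and 244 and 586 at least 2-fold higher and lower. The second 16 mM set against the first 10 mM set gave 4876 and 4881, with 357 and 1293 at least 2-fold, and the reverse crossing 183 and 104 at least 2-fold. Without the filter 170 genes were at least 2-fold higher, and limma on log2(FPKM + 1) gave 32 and 39. Leaving out 1 library gave 2393 to 2989 higher, 2144 to 2739 lower, 72 to 114 at least 2-fold higher and 227 to 418 at least 2-fold lower, with all lowest values without 16 mM library 4 or 5 and all highest without 16 mM library 1.

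Crossing the first 16 mM with the second 10 mM set turned HSPA8 to -0.31, HSP90AA1 to -0.40, SQSTM1 to -0.0486, CDKN1A to 0.70, MDM2 to 0.68, BTG2 to 0.49, IFI44L to 0.33 and ITGA5 to -0.0052. The other crossing turned FOS to 0.16 and FTL to 0.13. EGR1 was 0.23 in the first sets and 0.16 with voom weights, and CDKN1A 0.0054 in the second sets. AKT1, near 0, was -0.0053 with DESeq2 size factors, -0.0048 with the Wald test, -0.0116 with limma, -0.0012 with both doses alone, -0.0115 and -0.0107 with summed sets without and with a set term, -0.0282 in the second sets, -0.0572 in that crossing, and -0.0144 to 0.0215 without single libraries. The cause of these shifts was not tested.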
